A study of Danio rerio with 2 samples.

Results

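The Eph receptor tyrosine kinases and their membrane-bound ligands, the ephrins, were mapped across the cranial neural crest cell (NCC) classes of zebrafish embryos at 36 hpf. The family was taken as every gene whose symbol starts with *epha*, *ephb*, *efna* or *efnb* followed by a digit, which gave 28 of 25434 features. These are 8 EphA receptors, 7 EphB receptors, 8 ephrin-A ligands and 5 ephrin-B ligands. Of them, 18 had at least 50 unique molecular identifiers (UMIs, 1 per captured mRNA molecule) in crest cells of each library, and these 18 carry the values given for single genes. The symbol alone decided whether a gene was a member.

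Eph receptors and ephrins are read out where cells touch. An ephrin on one cell activates the Eph kinase of its neighbour (forward signaling) while the ephrin-bearing cell can receive a signal of its own (reverse signaling), and the usual outcome is repulsion or sorting of the cells. Ephrin-A ligands are held in the membrane by a lipid anchor and bind mostly EphA receptors, whereas ephrin-B ligands span the membrane and bind mostly EphB receptors, with EphA4 binding ligands of both classes. In the head, Eph-ephrin repulsion is known from *Xenopus* and mouse for keeping crest streams apart on their way to the arches, and in zebrafish for the boundaries of hindbrain segments. In humans, loss of the ligand EFNB1 causes craniofrontonasal syndrome.

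The embryos carried the transgenes *Tg(sox10:mRFP);Tg(fli1a:EGFP)* and were treated from 16 to 36 hpf with 100 µM YM, a Gq/11 inhibitor, or with DMSO, the vehicle, which the labels give as 10% v/v and the methods as a lower percentage. For each condition 70 embryos were treated, 10 were put aside, the remaining heads were pooled, and 8000 sorted cells were submitted as 1 droplet-based 3′ library. The *sox10* promoter drives mRFP in early crest and the *fli1a* promoter drives EGFP in crest mesenchyme and also in vessels and blood, so the gate for both colors can hold other cells. With 1 library per condition there is no replicate and no test, so genes are called by fixed size rules and all intervals are exact 95% intervals that cover counting error only.

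After cell calling and filters, 4429 YM cells with a median of 6527 UMIs and 3612 DMSO cells with a median of 5866 UMIs were kept, and 5 barcodes were shared by both libraries. The 6 crest classes were named from marker genes, and the Eph and ephrin genes took no part in the clustering. The YM and DMSO libraries gave 1066 and 785 frontonasal-like, 619 and 737 ventral arch-like, 1014 and 804 dorsal arch 1-like, 714 and 417 dorsal arch 2-like, 558 and 441 posterior arch-like and 298 and 288 *gata3*-positive-like cells. Of the genes behind the gate, *eGFP* was high, at 5542 to 10809 CPM in the crest classes (CPM, UMIs of a gene scaled to a common library total), whereas *mRFP* mRNA was at 0.192 to 3.52 CPM and *sox10* at 1.45 to 15.0 CPM. The ventral arch-like class held *hand2* at 494 and 560 CPM in YM and DMSO, but also *hoxb3a*, a gene of the posterior arches, at 246 and 238 CPM, against 354 and 378 CPM in the posterior arch-like class. Another posterior arch marker, *prdm1a*, was at 5.88 and 3.65 CPM in the ventral arch-like class, against 333 and 344 CPM in the posterior arch-like class, so the arch of origin of its *hoxb3a*-positive cells is not settled by these markers.

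The family supplied 14015 UMIs in YM and 9419 UMIs in DMSO crest cells, of which the 18 genes held 98.4% and 97.6%. The ligand *efnb2a* alone held 30.3% and 26.8% of them. A gene was called class-enriched if its CPM was at least 2-fold above the unweighted mean of the other 5 crest classes in each library. By this rule 9 of the 18 genes were enriched in at least 1 class, against 10.7% of all 9248 genes with the same minimum of UMIs. Of the remaining 9 genes, 6 were in no class 2-fold above or 2-fold below the others in both libraries. Some of them passed in a single library, such as *ephb4a* in frontonasal-like cells of YM. The share of all genes without such a class was not computed.

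The genes 2-fold above the other classes numbered 3 in frontonasal-like, 1 in ventral arch-like, 0 in dorsal arch 1-like, 2 in dorsal arch 2-like, 3 in posterior arch-like and 2 in *gata3*-positive-like cells. The share of all genes so enriched was 7.14% in frontonasal-like, 0.757% in ventral arch-like, 0.357% in dorsal arch 1-like, 0.627% in dorsal arch 2-like, 1.07% in posterior arch-like and 1.58% in *gata3*-positive-like cells. At least 2-fold below the other classes in both libraries were 4, 4, 1, 5, 6 and 3 of the 18 genes in the same order of classes, against 1.95%, 4.76%, 3.19%, 4.65%, 5.94% and 2.92% of all genes. Posterior arch-like cells thus had the most genes on the low side, and these were *epha4a*, *epha4l*, *epha7*, *ephb3a*, *efnb2a* and *efnb3b*, the class-enriched receptors and ephrin-B ligands of other classes. A class where a gene is enriched raises the mean that the other classes are set against. All of these genes except *efnb3b* were also 2-fold below in another class, for example *epha4a* and *ephb3a* in ventral arch-like and dorsal arch 2-like cells. Low calls of this kind are therefore not particular to posterior arch-like cells. The map of levels by class shows the same pattern of high and low classes in both libraries for most genes.

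**Figure D1:**
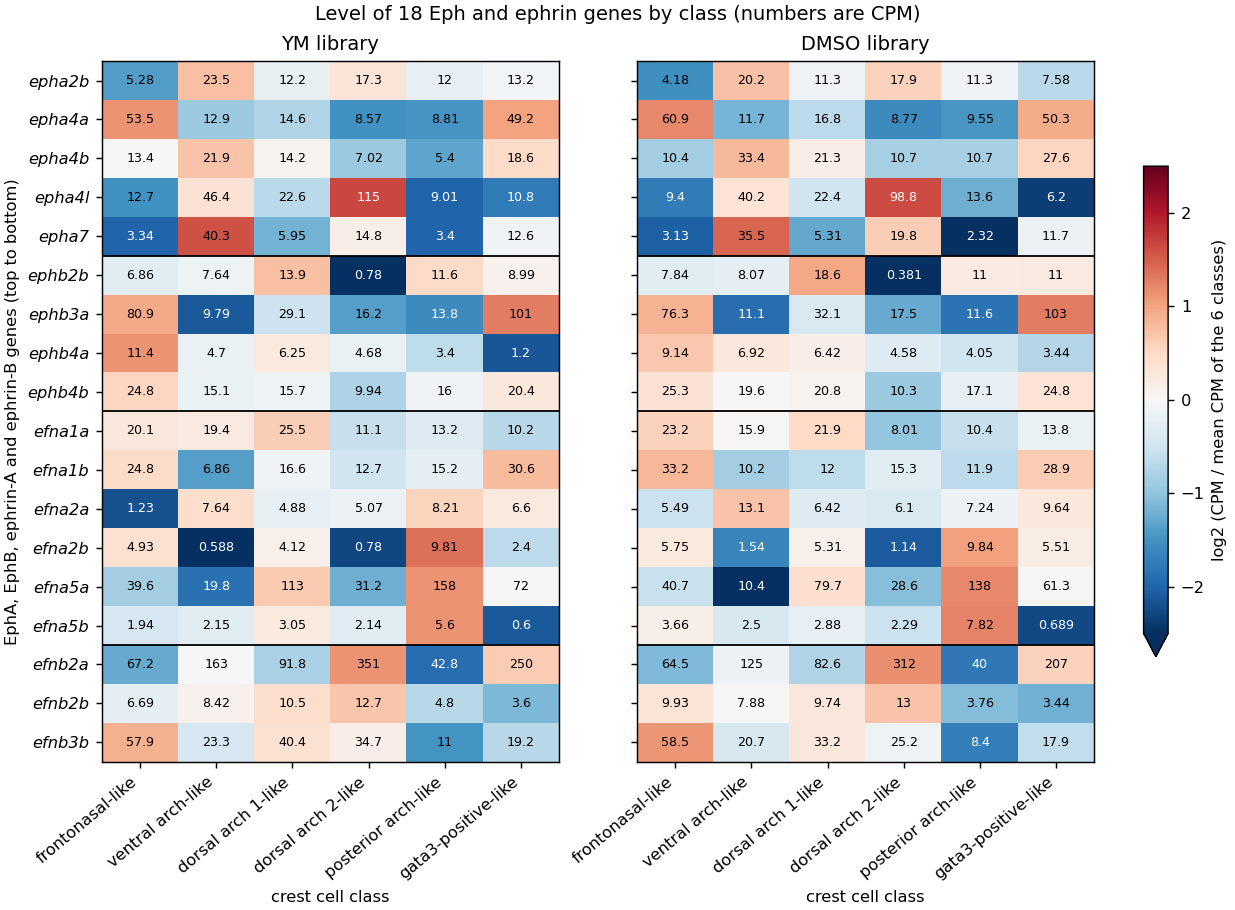
Level of the 18 Eph and ephrin genes with at least 50 UMIs per library (rows) in 6 crest classes (columns), YM left and DMSO right. Numbers are CPM and color is the log2 of CPM over the mean of the 6 classes; for example, *epha4l* reached 115 and 98.8 CPM in dorsal arch 2-like cells and *efnb2a* 351 and 312 CPM.

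Among the EphA receptors, the 3 *epha4* genes differed in their top class. *epha4a*, known in zebrafish from its stripes in the hindbrain, was at 53.5 CPM (interval 47.6 to 59.9) in YM and 60.9 CPM (53.3 to 69.2) in DMSO frontonasal-like cells, 2.84-fold and 3.13-fold above the other classes. It was as high in *gata3*-positive-like cells, at 49.2 CPM (39.1 to 61.0) in YM and 50.3 CPM (39.4 to 63.2) in DMSO, and the intervals of these 2 classes overlap. In the 4 arch classes it ranged from 8.57 to 14.6 CPM in YM and from 8.77 to 16.8 CPM in DMSO, so that no arch class reached the level of either group.

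*epha4l*, an *epha4*-like receptor gene, had its peak in dorsal arch 2-like cells, at 115 CPM (106 to 125) in YM and 98.8 CPM (87.1 to 112) in DMSO, 5.68-fold and 5.39-fold above the other classes. Ventral arch-like cells followed with 46.4 CPM in YM and 40.2 CPM in DMSO, and dorsal arch 1-like cells with 22.6 and 22.4 CPM. The posterior arch-like, frontonasal-like and *gata3*-positive-like classes lay between 6.20 and 13.6 CPM in either library. The intervals of the first 3 classes in this order do not overlap, whereas those of the last 3 do.

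*epha4b* was less restricted. Its level was highest in ventral arch-like cells, at 21.9 CPM (18.06 to 26.4) in YM and 33.4 CPM (28.7 to 38.8) in DMSO, with an overlapping interval in *gata3*-positive-like cells at 18.6 and 27.6 CPM. No class reached 2-fold enrichment for it. In the RefSeq gene order, 6 protein-coding genes lie between *epha4a* and *epha4b*, whose levels were highest in different classes.

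*epha7*, a receptor of ephrin-A ligands studied in cortical and retinal mapping in mouse and chick, was the only receptor enriched in ventral arch-like cells. *epha4l* had a higher level there, at 46.4 CPM in YM and 40.2 CPM in DMSO, without being enriched in this class. *epha7* was at 40.3 CPM (35.0 to 46.3) in YM and 35.5 CPM (30.6 to 41.0) in DMSO ventral arch-like cells, 5.03-fold and 4.2-fold above the other classes. Dorsal arch 2-like cells came next with 14.8 CPM in YM and 19.8 CPM in DMSO, and frontonasal-like and posterior arch-like cells were lowest, between 2.32 and 3.40 CPM. Over all genes, 0.757% were enriched in the ventral arch-like class by the same rule, and *epha7* was the only one of the 18 Eph and ephrin genes. *epha2b*, whose mammalian relative is a receptor of ephrin-A1 in epithelia, was highest in the ventral arch-like class too, at 23.5 and 20.2 CPM, and lowest in frontonasal-like cells, at 5.28 and 4.18 CPM, without reaching the 2-fold rule in a class above the others.

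Of the EphB receptors, *ephb3a*, whose mouse relative acts with EphB2 in closure of the palate, shared the classes of *epha4a*. It reached 80.9 CPM (73.7 to 88.7) in YM and 76.3 CPM (67.8 to 85.5) in DMSO frontonasal-like cells, and 101 CPM (86.6 to 118) and 103 CPM (86.8 to 120) in *gata3*-positive-like cells. The folds over the other classes were 2.38 and 2.18 in frontonasal-like cells and 3.38 and 3.45 in *gata3*-positive-like cells. Dorsal arch 1-like cells held 29.1 and 32.1 CPM, and the remaining arch classes between 9.79 and 17.5 CPM. At the coarser cluster resolution of 0.3, *ephb3a* in frontonasal-like cells and *epha4a* in *gata3*-positive-like cells fell below the 2-fold rule, with log2 folds of 0.69 and 0.74 in the lower of the 2 libraries.

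*ephb2b* was defined by where it was low. Dorsal arch 2-like cells held 4 UMIs of it in YM and 1 in DMSO, or 0.780 CPM (0.212 to 2.00) and 0.381 CPM (0.00966 to 2.13). In the other 5 classes it was at 6.86 to 13.9 CPM in YM and at 7.84 to 18.6 CPM in DMSO, highest in dorsal arch 1-like cells. The dorsal arch 1-like and dorsal arch 2-like classes thus stood at the top and the bottom of its order in both libraries. Within the dorsal arch 1-like class, the cluster led by *igfbp5b* held 17.4 CPM in YM and 20.5 CPM in DMSO. The other cluster of that class held 7.60 and 16.3 CPM. The top is not resolved, since the interval of dorsal arch 1-like cells overlapped that of posterior arch-like cells in YM and of *gata3*-positive-like cells in DMSO. Dorsal arch 2-like cells were 2-fold below the other classes for 5 of the 18 genes, against 4.65% of all genes.

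*ephb4a* and *ephb4b*, relatives of the receptor that marks veins and pairs with ephrin-B2 in mammalian vessels, passed the 2-fold rule in no class. *ephb4b* ranged from 9.94 to 24.8 CPM in YM and from 10.3 to 25.3 CPM in DMSO, and *ephb4a* from 1.199 to 11.4 CPM and from 3.44 to 9.14 CPM. For both genes the frontonasal-like class had the highest level in each library. *ephb4a* was 2.83-fold above the other classes there in YM but 1.80-fold in DMSO.

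**Figure D2:**
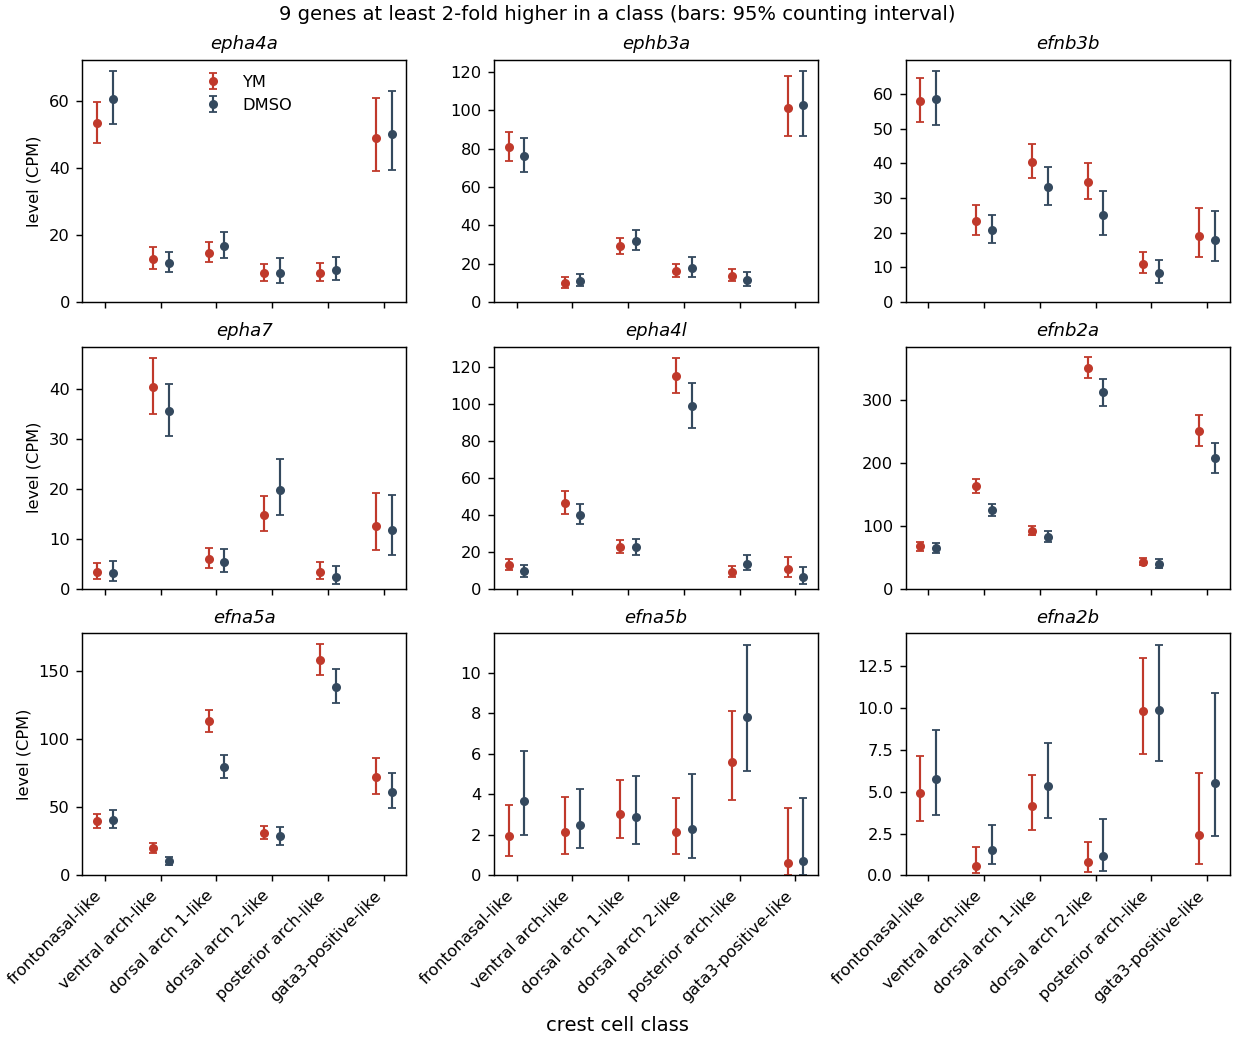
Level in CPM (vertical axis, from 0) of the 9 class-enriched genes in 6 crest classes, YM left of DMSO in each pair. Points are the summed UMIs of a class and bars the 95% Poisson interval; *epha4a* and *ephb3a* are high in frontonasal-like and *gata3*-positive-like cells, whereas *epha4l* and *efnb2a* have their highest level in dorsal arch 2-like cells.

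The ephrin-A ligands were led by *efna5a*, whose mammalian and chick relative repels retinal axons. It was at 158 CPM (147 to 170) in YM and 138 CPM (126 to 151) in DMSO posterior arch-like cells, 2.87-fold and 3.13-fold above the other classes. Dorsal arch 1-like cells held 113 CPM (105 to 122) and 79.7 CPM (71.7 to 88.4). *gata3*-positive-like cells followed with 72.0 and 61.3 CPM, frontonasal-like cells with 39.6 and 40.7 CPM and dorsal arch 2-like cells with 31.2 and 28.6 CPM. Ventral arch-like cells were lowest, at 19.8 CPM (16.11 to 24.0) in YM and 10.4 CPM (7.79 to 13.5) in DMSO.

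The ligands *efna5b* and *efna2b* were enriched in the same class as *efna5a* at a far smaller number of UMIs. *efna5b* was at 5.604 CPM (3.72 to 8.10) in YM and 7.82 CPM (5.15 to 11.4) in DMSO posterior arch-like cells, 2.83-fold and 3.25-fold above the other classes, and its interval overlaps that of the next class. *efna2b* was at 9.81 CPM (7.26 to 13.0) and 9.84 CPM (6.82 to 13.8) there, 3.83-fold and 2.56-fold above the others, and at 0.588 to 1.54 CPM in ventral arch-like and dorsal arch 2-like cells of either library. Enrichment in posterior arch-like cells was called for 3 of the 18 genes and for 1.07% of all genes, and all 3 are ephrin-A ligands. When classes were set by marker gates on single cells in place of clusters, all 3 fell below the 2-fold rule there, with log2 folds of 0.91 for *efna5a*, 0.88 for *efna5b* and 0.67 for *efna2b* in the lower of the 2 libraries.

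*efna1a* and *efna1b*, relatives of a ligand of EphA2 in mammals, showed no class at 2-fold in both libraries. *efna1b* was highest in *gata3*-positive-like and frontonasal-like cells, at 30.6 and 24.8 CPM in YM and 28.9 and 33.2 CPM in DMSO, and lowest in ventral arch-like cells, at 6.86 and 10.2 CPM. *efna1a* ranged from 10.2 to 25.5 CPM in YM and from 8.01 to 23.2 CPM in DMSO, with overlapping intervals between all neighbours in its order. *efna2a* ranged from 1.23 to 8.21 CPM in YM and from 5.49 to 13.1 CPM in DMSO, and its top class differed between the libraries.

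Of the ephrin-B ligands, *efnb2a*, a relative of the mammalian ephrin-B2 of arteries and of crest stream borders, gave the most finely ordered map. Its level was 351 CPM (335 to 368) in YM and 312 CPM (291 to 334) in DMSO dorsal arch 2-like cells, 2.86-fold and 3.0-fold above the other classes. *gata3*-positive-like cells held 250 and 207 CPM, ventral arch-like cells 163 and 125 CPM, dorsal arch 1-like cells 91.8 and 82.6 CPM, frontonasal-like cells 67.2 and 64.5 CPM and posterior arch-like cells 42.8 and 40.0 CPM. The order of all 6 classes was the same in both libraries, and no interval overlapped that of its neighbour. *efnb2a* also had the most UMIs of the family, 4246 in YM and 2527 in DMSO crest cells, which narrows its intervals. *efna5a*, *efnb3b*, *epha4a* and *ephb3a* kept their order in both libraries too, with some neighbours overlapping. How many of all genes are ordered in this way was not computed. In dorsal arch 2-like cells 0.627% of all genes were enriched, and of the 18 these were *efnb2a* and *epha4l*.

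*efnb3b*, whose mouse relative forms a barrier for axons at the spinal midline, was enriched in frontonasal-like cells instead. It was at 57.9 CPM (51.8 to 64.5) in YM and 58.5 CPM (51.1 to 66.7) in DMSO, 2.25-fold and 2.77-fold above the other classes, and lowest in posterior arch-like cells at 11.0 and 8.40 CPM. The frontonasal-like class is where the most genes pass the rule, 7.14% of all genes and 3 of the 18, namely *efnb3b*, *epha4a* and *ephb3a*. *efnb2b* ran from 3.60 to 12.7 CPM in YM and from 3.44 to 13.0 CPM in DMSO, highest in dorsal arch 2-like cells.

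UMIs were then summed over the genes of a subfamily, in which genes with many UMIs weigh most and differences in capture between genes are not corrected. Summed EphA receptors were highest in dorsal arch 2-like cells, at 165 CPM in YM and 159 CPM in DMSO, and ventral arch-like cells, at 146 and 144 CPM, and lowest in posterior arch-like cells, at 40.8 and 49.8 CPM. Their ephrin-A ligands stood the other way round, with 213 and 188 CPM in posterior arch-like cells against 57.8 and 56.9 CPM in ventral arch-like and 64.7 and 63.3 CPM in dorsal arch 2-like cells. Each of these 2 peaks came mostly from 1 gene. *epha4l* held 591 of 846 EphA UMIs in YM and 259 of 417 in DMSO dorsal arch 2-like cells. *efna5a* held 790 of 1063 ephrin-A UMIs in YM and 478 of 649 in DMSO posterior arch-like cells. Summed EphB receptors were highest in *gata3*-positive-like cells, at 132 and 143 CPM, and frontonasal-like cells, at 124 and 119 CPM, and lowest in dorsal arch 2-like cells, at 32.0 and 32.8 CPM. Summed ephrin-B ligands were highest in those dorsal arch 2-like cells, at 400 CPM in YM and 351 CPM in DMSO, and lowest in posterior arch-like cells, at 59.8 and 53.9 CPM. These peaks also came mostly from 1 gene each. *ephb3a* held 169 of 220 EphB UMIs in YM and 149 of 208 in DMSO *gata3*-positive-like cells. *efnb2a* held 1801 of 2052 ephrin-B UMIs in YM and 817 of 921 in DMSO dorsal arch 2-like cells. *gata3*-positive-like cells were high for EphB receptors and ephrin-B ligands together, with 276 CPM in YM and 236 CPM in DMSO of these ligands.

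**Figure D3:**
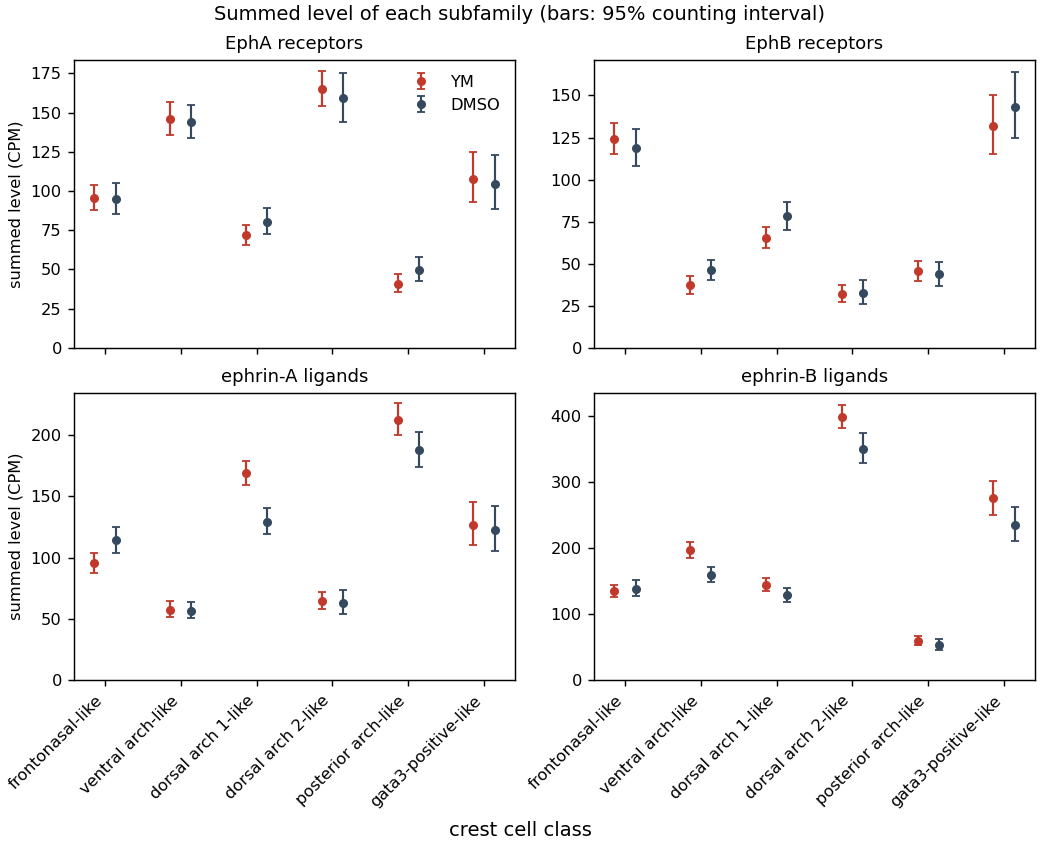
Summed level in CPM (vertical axis, from 0) of the EphA, EphB, ephrin-A and ephrin-B genes in 6 crest classes, YM left of DMSO, with 95% Poisson intervals. EphA receptors and ephrin-A ligands peak in different classes, dorsal arch 2-like at 165 and 159 CPM and posterior arch-like at 213 and 188 CPM. The peaks come mostly from *epha4l* and *efna5a*.

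Of the 6 pairs of duplicate genes with both copies above the UMI minimum, 3 had the same top class in both libraries. These were *efna5a* and *efna5b* in posterior arch-like cells, *efnb2a* and *efnb2b* in dorsal arch 2-like cells, and *ephb4a* and *ephb4b* in frontonasal-like cells. For *efna5b*, *efnb2b* and *ephb4b* the interval of the top class overlapped that of the next class in both libraries, and for *ephb4a* in DMSO. The shared top class of these pairs is thus a rank within counting error. How often other pairs of genes share a top class was not computed. The *efna1*, *efna2* and *epha4* pairs did not share a top class in both libraries. For the *efnb2* pair the shape differed beside the shared peak, since *efnb2a* was second highest in *gata3*-positive-like cells, where *efnb2b* was lowest, at 3.60 CPM in YM and 3.44 CPM in DMSO.

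In single cells, the share with a UMI was compared after every cell was thinned to 3500 UMIs. *efnb2a* was seen in 59.2% of 683 YM and 52.9% of 395 DMSO dorsal arch 2-like cells (76.5% and 66.7% unthinned), and *epha4l* in 30.0% and 25.8% (48.2% and 38.6% unthinned). Thinning left out 31 YM and 22 DMSO cells of this class, whose median depth was 6845 and 6197 UMIs. *efna5a* was seen in 43.2% of 544 YM and 33.2% of 431 DMSO posterior arch-like cells. *epha7* was seen in 12.2% of 607 YM and 9.28% of 711 DMSO ventral arch-like cells. The background was read in blood-like cells (erythroid-, neutrophil- and macrophage-like), and any expression of their own would count as background. They numbered 64 in YM and 70 in DMSO, with median depths of 9626 and 8566 UMIs. Their shares were 1.56% and 2.86% for *efnb2a* (7.69% and 2.82% unthinned), 1.56% and 0% for *epha4l*, 0% and 1.43% for *efna5a*, and 0% in both for *epha7*. A share of 0 in these cells allows up to 5.601% in YM and 5.13% in DMSO by the exact interval.

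Receptor and ligand UMIs were also found under the same cell barcodes. No doublets were removed, so a barcode with both may hold more than a single cell. An alternative setting removed the cells with the highest doublet scores, 160 of 4429 in YM and 107 of 3612 in DMSO. The part of doublets in the shares below was not tested, which matters most where few cells held both. Among dorsal arch 2-like cells thinned in the same way, a UMI of an EphB or *epha4* receptor was in 40.6% of YM and 38.0% of DMSO cells, an ephrin-B UMI in 66.2% and 58.0%, and both in 27.4% (24.1 to 30.9) and 22.0% (18.03 to 26.4). The receptor share was 41.4% in ligand-positive and 39.0% in ligand-negative YM cells, and 38.0% in both kinds of DMSO cell. In posterior arch-like cells both were found in 4.78% of YM and 2.78% of DMSO cells. For EphA receptors with ephrin-A ligands, cells with both made up 12.4% and 9.87% of *gata3*-positive-like cells and 4.60% and 6.73% of posterior arch-like cells. The EphA share of ligand-positive against ligand-negative *gata3*-positive-like cells was 38.4% against 31.5% in YM and 30.7% against 34.2% in DMSO. For posterior arch-like cells it was 8.71% against 15.2% in YM and 15.9% against 11.2% in DMSO, so the direction differed between the libraries in both classes.

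Within the frontonasal-like class, the cluster with *zic2a* among its 10 leading genes (*zic2a*-led, with *cldn11a* first) was set against the cluster led by *pitx3*. They differed in 4 of the 8 genes with at least 50 UMIs per library, at 1.5-fold in both libraries. This comparison was chosen after the clusters were seen. *epha4a* was higher in the *zic2a*-led cluster, at 83.5 against 41.9 CPM in YM and 93.2 against 49.3 CPM in DMSO, and so was *ephb3a*, at 108 against 70.7 CPM and 115 against 62.4 CPM. *efnb3b* was lower there, at 40.5 against 64.6 CPM in YM and 40.6 against 64.9 CPM in DMSO, and so was *efna5a*, at 20.9 against 46.8 CPM and 29.7 against 44.7 CPM. Of all 5220 genes compared, 6.34% were higher and 5.04% lower. All 4 genes were present in both clusters, and the differences were of degree. *efnb2a* missed the rule in YM, at 87.9 CPM in the *zic2a*-led against 59.2 CPM in the *pitx3*-led cluster, a log2 ratio of 0.57 (0.26 to 0.88). In DMSO *efnb2a* was at 108 against 48.9 CPM. Between the 2 clusters of the ventral arch-like, dorsal arch 1-like and dorsal arch 2-like classes, none of 11, 12 and 5 genes passed 1.5-fold in both libraries in either direction. The shares of all genes, higher and lower, were 2.84% and 1.95% in the ventral arch-like, 4.91% and 1.56% in the dorsal arch 1-like and 3.86% and 2.22% in the dorsal arch 2-like class.

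The ventral arch-like class was split by *hox* UMIs, also after the data were seen. Cells with a UMI of *hoxb3a* or *hoxd3a* (*hox3* cells) numbered 186 in YM and 211 in DMSO, cells with *hoxa2b* or *hoxb2a* but no *hox3* UMI (*hox2* cells) 282 and 321, and cells with none 151 and 205. A cell with no *hox* UMI may still transcribe these genes, and such cells were shallower, with medians of 6903 UMIs in YM and 5883 UMIs in DMSO, against 9041 and 7634 UMIs for *hox3* cells. *epha4l* was higher in *hox2* cells, at 50.3 CPM against 28.7 CPM in cells with no *hox* UMI of YM and at 46.7 against 14.47 CPM in DMSO. It was 52.4 and 50.1 CPM in *hox3* cells. *ephb4b* was lower in *hox2* cells, at 10.9 against 25.9 CPM in YM and 11.7 against 31.4 CPM in DMSO. Of the 8 genes compared between *hox2* cells and cells with no *hox* UMI, these were the only ones past 1.5-fold in both libraries, against 1.48% higher and 1.24% lower among all genes. In *hox3* cells, 2 of 6 genes (*epha4l* and *epha2b*) were higher and 1 (*epha4b*) was lower than in cells with no *hox* UMI. Among all genes the shares were 2.22% and 1.71%. The interval of *epha4l* excluded no change in both libraries. The *epha2b* call lay within counting error in both, with log2 ratios of 0.73 in YM and 0.697 in DMSO. Cells with no *hox* UMI held 18 and 19 UMIs of this gene. The *epha4b* call lay within counting error in YM, at a log2 ratio of −0.68, but not in DMSO, at −1.03. *epha7*, enriched in the ventral arch-like class, was uneven within it. It was at 52.9 CPM in YM and 50.8 CPM in DMSO *hox2* cells, against 21.9 and 24.8 CPM in *hox3* cells. Cells with no *hox* UMI lay at 43.5 CPM in YM and 23.3 CPM in DMSO for *epha7*.

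*ephb2b* had too few UMIs for that rule and is named after its values were seen. Of its ventral arch-like UMIs, 31 of 39 in YM and 34 of 42 in DMSO were in cells with no *hox* UMI, where it was at 28.7 CPM (19.5 to 40.7) and 27.3 CPM (18.9 to 38.2). *hox2* cells held 4 and 1 UMIs, or 1.75 CPM (0.477 to 4.48) and 0.450 CPM (0.0114 to 2.50). *hox3* cells held 4 and 7 UMIs, or 2.30 CPM (0.627 to 5.90) and 4.03 CPM (1.62 to 8.31). Ventral arch-like cells with either kind of *hox* UMI were thus low for *ephb2b*, as dorsal arch 2-like cells were. Posterior arch-like cells, where *hoxb3a* was at 354 and 378 CPM, were not, with *ephb2b* at 11.6 CPM in YM and 11.0 CPM in DMSO.

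**Figure D4:**
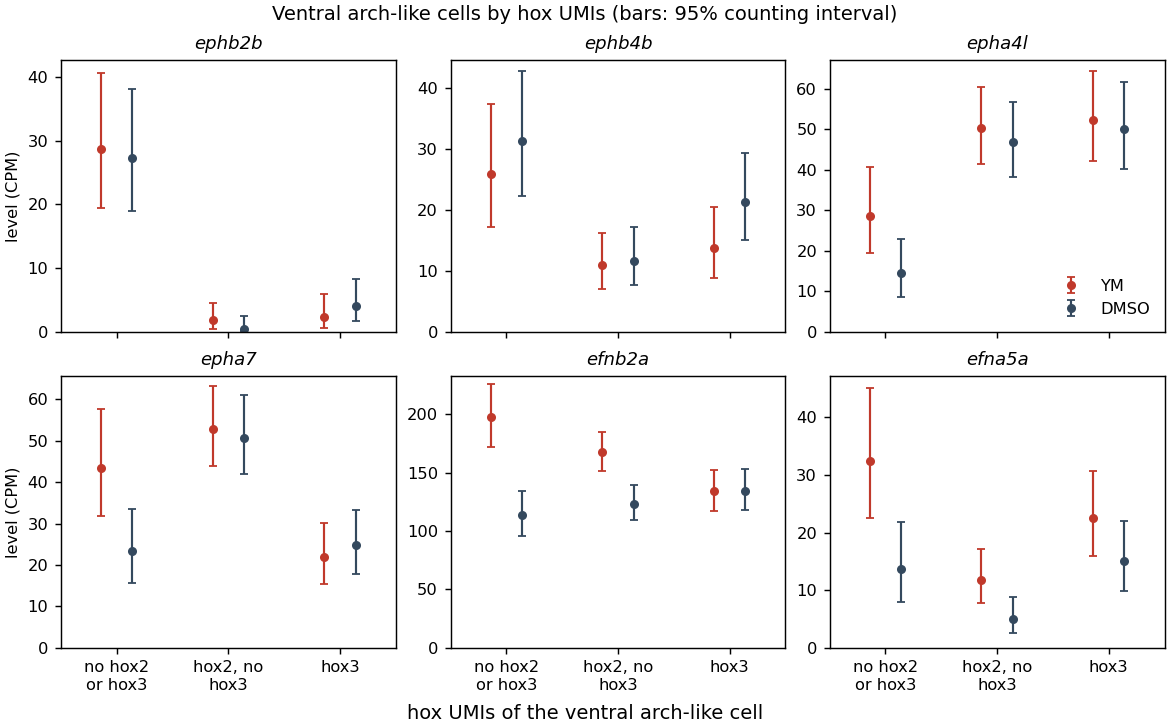
Level in CPM (vertical axis, from 0) of 6 Eph and ephrin genes in ventral arch-like cells split by *hox* UMIs, YM left of DMSO, with 95% Poisson intervals. *ephb2b* lies at 28.7 and 27.3 CPM in cells with no *hox2* or *hox3* UMI and under 5 CPM in the other groups, whereas *epha4l* is lower in cells with no *hox* UMI.

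The YM and DMSO libraries were compared within each class for 84 gene and class pairs with at least 50 UMIs over both libraries. YM was at least 1.5-fold higher in 1 pair and at least 1.5-fold lower in 5 pairs, against 2.54% higher and 3.33% lower among 40026 pairs of all genes. By class, none of 15 genes passed in frontonasal-like cells (2.25% of all genes higher, 2.98% lower), none of 17 in dorsal arch 1-like (2.31% and 3.24%) and none of 8 in *gata3*-positive-like cells (2.52% and 3.85%). In ventral arch-like cells 1 of 16 genes was higher and 2 were lower (2.57% and 3.17%), in dorsal arch 2-like cells 1 of 13 was lower (3.11% and 3.55%), and in posterior arch-like cells 2 of 15 were lower (2.53% and 3.47%). For most genes and classes the Eph and ephrin map was therefore within 1.5-fold between the treatments. The median log2 ratio of YM to DMSO over the family ran from −0.03 in dorsal arch 2-like and frontonasal-like cells to 0.12 in ventral arch-like cells, against medians of −0.06 to −0.02 over all genes.

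The pair that was higher was *efna5a* in ventral arch-like cells, with 101 UMIs in YM and 54 UMIs in DMSO, or 19.8 and 10.4 CPM, a log2 ratio of 0.93 (0.44 to 1.44). It was also higher in dorsal arch 1-like cells, at 113 and 79.7 CPM, a log2 ratio of 0.51 (0.32 to 0.69) that misses the rule. In ventral arch-like cells the 7 markers of dorsal arch 1 summed to 189 CPM in YM and 312 CPM in DMSO, the 8 ventral markers to 1522 and 2613 CPM and the 15 posterior arch markers to 351 and 322 CPM, and their part in the result was not tested. The ventral list includes *dlx4a* and *dlx4b*, which the study reports as lowered by YM. The dorsal arch 1 list includes *igfbp5b*, *grem2b* and *emx2*, which the study counts as genes of the domain between dorsal and ventral. These sums are therefore not a measure of class make-up alone. With marker gates in place of clusters the log2 ratio of *efna5a* in ventral arch-like cells was 0.38, below the rule.

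*epha4b* was lower in YM in 5 of the 6 classes and passed the rule in 3 of them. Counting differences of any size, *efna2b* and *ephb4b* were lower in all 6 classes, and *efna2a*, *efna5b* and *epha4a* in 5. *efnb2a* was higher in all 6, and *efna5a*, *efnb3b*, *epha2b*, *epha4l* and *epha7* in 5. Such counts were not made for all genes. *epha4b* was at 21.9 CPM in YM and 33.4 CPM in DMSO ventral arch-like cells, a log2 ratio of −0.61 (−0.96 to −0.26). In posterior arch-like cells it was at 5.40 and 10.7 CPM, a log2 ratio of −0.99 (−1.76 to −0.23), and in dorsal arch 2-like cells at 7.02 and 10.7 CPM, a log2 ratio of −0.61 (−1.36 to 0.16). Frontonasal-like cells were the exception, with 13.4 and 10.4 CPM. Over all crest cells *epha4b* had 375 UMIs in YM and 415 UMIs in DMSO, or 12.9 and 19.7 CPM, a log2 ratio of −0.61 (−0.82 to −0.41). The shares of the classes enter this ratio, as ventral arch-like cells, its highest class, were 14.0% of YM and 20.4% of DMSO cells. In dorsal arch 2-like cells the sign turned, to 0.18, when all variable genes entered the clustering. Of the alternative settings, the rule was passed in 11 of 11 in posterior arch-like, 7 of 10 in ventral arch-like (−1.13 to −0.55) and 4 of 10 in dorsal arch 2-like cells (−0.94 to 0.18).

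*efna2a* was at 7.64 CPM in YM and 13.1 CPM in DMSO ventral arch-like cells, a log2 ratio of −0.77 (−1.38 to −0.19), which became −0.44 with all variable genes in the clustering. Over all crest cells its log2 ratio was −0.62 (−0.94 to −0.30), with 156 and 173 UMIs, and the shares of the classes enter this ratio too. *epha4l* was at 9.01 CPM in YM and 13.6 CPM in DMSO posterior arch-like cells, a log2 ratio of −0.60 (−1.22 to 0.03), but its sign turned, to 0.48 and 0.20, with all variable genes in the clustering and with marker gates. Of the pairs that passed neither side of the rule, the highest log2 ratio was that of *efna5a* in dorsal arch 1-like cells and the lowest that of *epha4b* in the same class, −0.58 (−1.01 to −0.16).

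**Figure D5:**
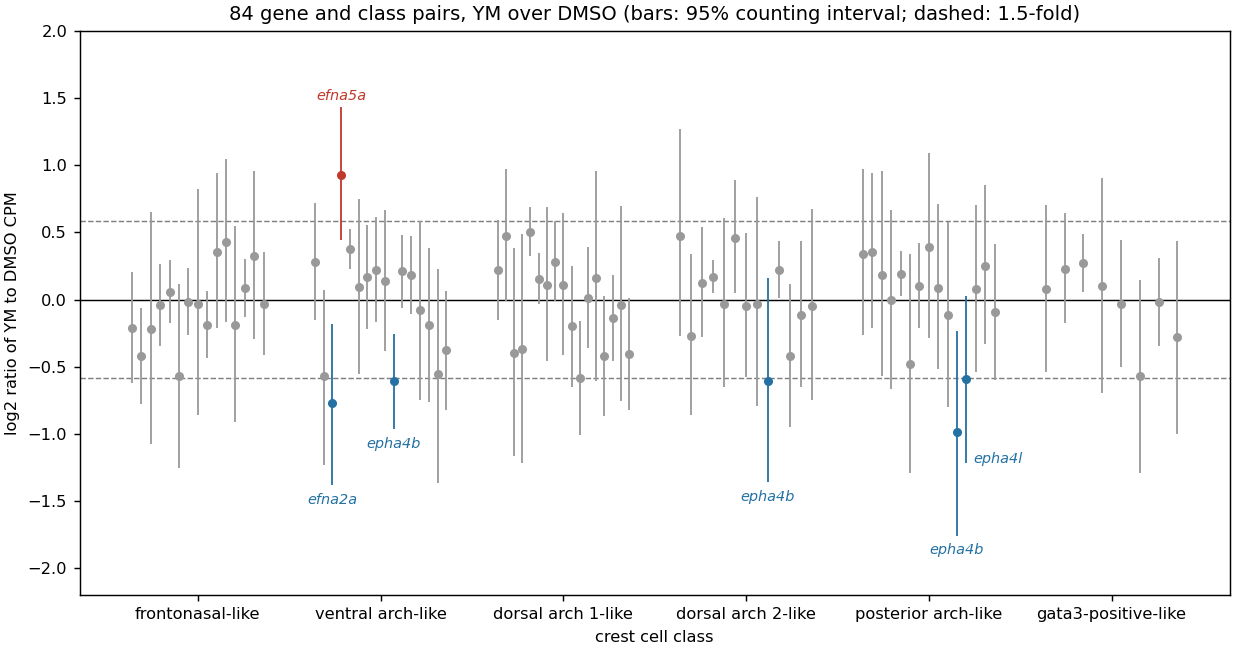
Log2 ratio of YM to DMSO CPM (vertical axis) for 84 gene and class pairs grouped by crest class, with 95% conditional binomial intervals; dashed lines mark 1.5-fold. Red marks *efna5a* in ventral arch-like cells (0.93) and blue the 5 lower pairs, of which 3 are *epha4b*.

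The libraries were also compared within the groups split by *hox* UMIs. In ventral arch-like cells with no *hox* UMI, YM was 1.5-fold higher for 4 of 8 genes, against 3.91% of all genes. A gene was compared with at least 50 UMIs over both libraries, so a high level in YM itself helped a gene to enter. Close to that minimum were *efna5a*, with 35 UMIs in YM and 17 in DMSO, and *efnb3b*, with 29 and 22. The count of 4 is therefore not a measure of how often the family was higher. *efnb2a* was at 198 CPM (172 to 226) in YM and 114 CPM (96.2 to 135) in DMSO cells, a log2 ratio of 0.79 (0.48 to 1.11). *epha7* was at 43.5 and 23.3 CPM, a log2 ratio of 0.90 (0.20 to 1.62), *efna5a* at 32.4 and 13.7 CPM, a log2 ratio of 1.24 (0.37 to 2.17), and *efnb3b* at 26.8 and 17.69 CPM, a log2 ratio of 0.60 (−0.25 to 1.47). *epha4b* was lower there, at 28.7 and 48.2 CPM, against 3.77% of all genes that were lower. In *hox2* cells no gene of 8 was higher and 1, *epha4b*, was lower, against 3.1% and 4.28% of all genes. In *hox3* cells no gene of 7 was higher and 1, *ephb4b*, was lower, against 3.15% and 3.94%. This *ephb4b* call lay within counting error, at a log2 ratio of −0.62 (−1.43 to 0.15). *efnb2a* was at 167 CPM in YM and 124 CPM in DMSO *hox2* cells, a log2 ratio of 0.44 (0.21 to 0.67) that misses the rule, and at 134 and 135 CPM in *hox3* cells. Cells with no *hox* UMI were 151 of 619 ventral arch-like cells in YM and 205 of 737 in DMSO, and the part of their make-up in the result was not tested.

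Summed over all crest cells, EphA receptors were at 103 CPM in YM and 105 CPM in DMSO, a log2 ratio of −0.03 (−0.11 to 0.05), and EphB receptors at 66.4 and 70.8 CPM, −0.09 (−0.19 to 0.00). Ephrin-A ligands were at 122 and 110 CPM, a log2 ratio of 0.15 (0.08 to 0.23), and ephrin-B ligands at 190 and 161 CPM, 0.24 (0.17 to 0.30). The shares of the classes differ between the libraries, with dorsal arch 2-like cells, the class highest in ephrin-B ligands, at 16.12% of YM and 11.54% of DMSO cells. Within classes the log2 ratio of the ephrin-B sum ran from −0.04 (−0.20 to 0.12) in frontonasal-like cells to 0.30 (0.16 to 0.43) in ventral arch-like cells, and was 0.19 (0.07 to 0.30) in dorsal arch 2-like cells. The ephrin-A sum was lower in YM in frontonasal-like cells, −0.25 (−0.44 to −0.07), and higher in dorsal arch 1-like cells, 0.39 (0.24 to 0.53), and posterior arch-like cells, 0.18 (0.04 to 0.32), with intervals that include 0 in the remaining classes.

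The 10 family members below the UMI minimum had between 0 and 65 UMIs in YM and between 0 and 63 UMIs in DMSO crest cells. The ligand *efna3a* had none in either library and *ephb2a* had 1 in YM and none in DMSO. *epha6*, *ephb1* and *ephb6*, the last a receptor whose mammalian relative lacks kinase activity, had between 2 and 4 UMIs in each library. *epha3* had 45 and 37 UMIs, of which 32 and 22 were in frontonasal-like cells. *efnb1*, the relative of the gene of craniofrontonasal syndrome, had 19 UMIs in YM and 32 in DMSO, of which 9 and 22 were in ventral arch-like cells, or 1.76 CPM (0.806 to 3.35) and 4.23 CPM (2.65 to 6.40). The remaining 3, *efna3b*, *efnb3a* and *epha2a*, had 65, 49 and 43 UMIs in YM and 47, 63 and 35 in DMSO.

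Genes that act downstream of the family were taken from fixed lists. Of 36 forward signaling effectors, 34 were measured and 21 had the minimum of UMIs, and none was enriched in a class, against 10.7% of all genes. Between the treatments, YM was 1.5-fold higher in 4 and lower in 4 of 100 gene and class pairs, close to the 2.54% and 3.33% of all pairs. The higher ones included *nck2a*, an SH2 adaptor, in dorsal arch 1-like cells (15.6 and 8.19 CPM, log2 ratio 0.93, 0.37 to 1.51) and *sipa1l1*, a Rap GTPase-activating protein, in dorsal arch 2-like cells (0.71, 0.10 to 1.37). The lower ones were led by *acp1*, a phosphatase of Eph receptors, in dorsal arch 2-like cells (21.6 and 35.5 CPM, −0.71, −1.12 to −0.30), *tiam1a*, a Rac exchange factor, in posterior arch-like cells (−0.63, −1.39 to 0.14) and *itsn2b*, a Cdc42 exchange factor, in dorsal arch 1-like cells (−0.61, −1.09 to −0.14).

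Of 14 ephrin-B reverse signaling partners, 5 had the minimum of UMIs and 2 were enriched in a class, against 10.7% of all genes. *tln1*, the integrin-linked talin, was at 101 CPM in YM and 113 CPM in DMSO frontonasal-like cells, 2.32-fold and 2.36-fold above the other classes. *pdzrn3b*, a PDZ domain ubiquitin ligase, was at 53.2 and 41.98 CPM in posterior arch-like cells, 2.22-fold and 2.14-fold above. In YM it was 1.5-fold higher in ventral arch-like cells, at 15.3 CPM against 9.41 CPM in DMSO, and in *gata3*-positive-like cells, at 39.6 against 25.5 CPM, which made 2 of the 28 pairs of this list, with none lower, against 2.54% higher and 3.33% lower of all pairs. Of the 2 sheddases, which cut ephrins from the membrane, only *adam10a* had the minimum of UMIs, and *adam10b* was not compared. *adam10a* was lower in *gata3*-positive-like cells, at 21.0 CPM in YM and 37.2 CPM in DMSO, a log2 ratio of −0.83 (−1.48 to −0.19). This was the only 1 of 6 pairs past the rule, against 3.85% of all genes lower in these cells.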

How the data were processed

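The YM and DMSO 10x libraries were analysed, grouped by their treatment labels. The matrices that the authors deposited hold unnormalized UMI counts, made with Cell Ranger on GRCz11, unfiltered, over 6794880 barcodes per library (33649382 YM and 25340682 DMSO UMIs), and the deposited feature and barcode lists hold other values (names). Cells were called by Cell Ranger's published rules, reimplemented in Python 3.11.15, and filtered by the limits of the methods, 200 to 3500 (YM) or 3000 (DMSO) genes and under 5% mitochondrial UMIs. Clustering in Seurat 5.3.0 (R 4.3.3) used 1952 variable genes without Eph and ephrin genes or those the study lists as changed by YM, cell cycle regression, 30 components and a resolution of 0.8. Also left out were the study's genes of the domain between dorsal and ventral, *hand2*, *jag1b*, *gnaq*, *gna11a*, *gna11b*, *eGFP*, *mRFP* and EPHB3. Some of the genes left out, such as *hand2*, served as markers to name the classes. A cluster took a class name with at least 2 of its fixed markers among 10 leading genes, at most 1 of another class and 3 markers raised 2-fold, and 31 YM and 13 DMSO cells stayed unnamed. The classes are rebuilt and need not match those of the study.

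Within each library, the UMIs of a class were added up and scaled to CPM. Intervals are exact (Poisson for CPM, conditional binomial for ratios, binomial for shares) and cover counting error only, a count of 0 giving only an upper limit. Ratios used genes with 50 UMIs in a class over both libraries and a 1.5-fold rule, class enrichment 50 UMIs per library and a 2-fold rule. All 18 genes past that minimum are named, ratios past the rule are named with the extremes of the rest, and of the downstream lists at most 3 genes per direction. The genes and lists were chosen with earlier results of these data known. Gene symbols were matched to RefSeq (28 of 28), used only for gene order. Scrublet (scanpy 1.11.5) marked 3 YM and 1 DMSO cells, too few to have worked, so no doublets were removed. TMM factors came from edgeR 4.0.16. The rules were tested on simulated data. The comparisons between clusters of a class and the split by *hox* UMIs were added after the data were seen. No sequences are shown, as none were used here. A value of 1 gene of the downstream lists is not reported here.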

Additional observations from a re-analysis of the deposited data

Results flagged for a closer look

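A signal outside the crest classes was seen for the receptor *epha2a*, which had 43 UMIs in YM and 35 UMIs in DMSO crest cells, or 1.48 and 1.66 CPM. In the 47 epidermal-like cells of each library it was at 37.7 CPM (17.3 to 71.6) in YM and 23.9 CPM (9.60 to 49.2) in DMSO, from 9 and 7 UMIs, above the level in every crest class of the same library.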

How the results depend on the processing

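No paired analysis was possible because each condition is 1 library. The count of 9 class-enriched genes was between 8 and 11 under 12 alternatives and 16 at a lower fold of 1.5. The 1 higher pair in YM became 0 at a resolution of 0.3 and at a fold of 2, 2 with the mean over cells, 3 with marker gates, 4 after thinning and with a minimum of 20 UMIs, and 5 without cell cycle regression. The 5 lower pairs became 0 at a fold of 2, 2 with TMM factors and after thinning, 3 without cell cycle regression, 8 after subtraction of free RNA (0.364% of UMIs in YM, 2.36% in DMSO) and 10 with a minimum of 20 UMIs. The log2 ratio of summed EphB receptors was −0.09 and became 0.054 after thinning, and that of ephrin-B ligands was 0.24 and became 0.11 at a resolution of 0.3. The sign turned for *epha4b* in dorsal arch 2-like cells (0.18, all variable genes in the clustering) and for *epha4l* in posterior arch-like cells (0.48 with all variable genes, 0.20 with marker gates). The cause of these changes was not tested. Of 177 values of single genes under alternatives, 151 lay within the counting interval of the reported value, 23 moved outside it and 3 changed sign. The count of 3 duplicate pairs with a shared top class was 3 with marker gates too, with *efna1* in place of *efna5*. At a resolution of 0.3 the ventral arch-like and dorsal arch 2-like classes are missing, and marker gates leave 12.04% of crest cells ungated and hold no *gata3*-positive-like class. Depth limits genes under 50 UMIs, whose intervals span several-fold.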

Other observations

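A further EphB gene, given in the files as EPHB3 in capitals and so outside the symbol rule, had 63 UMIs in YM and 49 UMIs in DMSO crest cells, or 2.16 and 2.32 CPM. In *gata3*-positive-like cells it had 3 and 10 UMIs.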
